A study of Homo sapiens with 6 samples.

Results

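Notch signaling was examined through 10 genes: the receptors *NOTCH1*, *NOTCH2* and *NOTCH3*, the ligands *JAG1*, *JAG2* and *DLL1*, the nuclear partners *RBPJ* and *MAML1*, and the target genes *HES1* and *HEY1*. They were chosen by symbol for their textbook roles, with earlier results of these data known, and are 10 of the 46427 genes in the count table. All 10 passed the filter on low counts. RNA was sequenced from HCT116, a human colorectal carcinoma cell line, as parental cells (*ZK3*-WT, wild type for *ZKSCAN3*) and as *ZKSCAN3* knockout cells (*ZK3*-KO), with 3 biological replicates of each. In the knockout cells, CRISPR/Cas9 was aimed at the first exon of *ZKSCAN3*, which encodes a zinc finger transcription factor. Cells with both alleles mutated had been isolated by puromycin and single-cell selection, and whether the *ZK3*-KO cultures share a clone is not stated. Both genotypes were grown in DMEM with serum, and no other agent was applied.

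Notch is a pathway between neighboring cells. A Jagged or Delta ligand on one cell binds a Notch receptor on the next, ADAM proteases and γ-secretase cut the receptor, and its intracellular part enters the nucleus. There it joins the DNA-binding protein RBPJ and a Mastermind coactivator and switches on repressors of the HES and HEY families. In the intestinal crypt, this pathway maintains dividing progenitors and holds back the secretory fate.

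*HES1* is the target gene with the best known RBPJ sites near its start, and *JAG1* and *JAG2* are the members whose *ZK3*-WT and *ZK3*-KO levels were farthest apart with no overlap. For these genes, the 120 bases before the transcription start are therefore shown, from RefSeq on GRCh38.p14, with each copy of TGGGAA, the core of the RBPJ motif, in capitals. They lie at chr3:194136028-194136147 on the forward strand for *HES1*, at chr20:10674000-10674119 on the reverse strand for *JAG1*, and at chr14:105168777-105168896 on the reverse strand for *JAG2*.
HES1: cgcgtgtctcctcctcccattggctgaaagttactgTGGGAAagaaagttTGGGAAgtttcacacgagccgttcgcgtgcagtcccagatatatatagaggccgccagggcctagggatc
JAG1: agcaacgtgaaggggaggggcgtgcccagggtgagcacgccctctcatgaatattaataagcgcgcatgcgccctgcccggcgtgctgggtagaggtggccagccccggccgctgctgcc
JAG2: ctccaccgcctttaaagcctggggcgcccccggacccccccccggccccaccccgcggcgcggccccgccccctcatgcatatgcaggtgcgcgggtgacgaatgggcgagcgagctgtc
The *HES1* sequence held the motif at 84 and at 70 bases before the start, both on the strand of the gene, and the first copy also matched the longer GTGGGAA. A window of 300 bases (250 before and 50 after the start) was searched on both strands for TGGGAA in 35116 promoters, and 24.0% held at least 1 copy and 3.80% at least 2. GTGGGAA, which contains TGGGAA, was found in 6.25% of them. Of the members, 8 were matched in the promoter table, all but *DLL1* and *HEY1*, and only *HES1* among these 8 held TGGGAA in this window. For each of these 8, only the first promoter listed under its symbol was searched. A match is a stretch of letters and not a measured binding site. The copies in capitals were not matched to the known RBPJ sites of *HES1*, which can differ from TGGGAA.

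Libraries held between 60827060 and 69739215 counted reads, and the 10 genes took between 0.0612% and 0.0847% of them. *ZK3*-KO replicate 3 stood apart from the other libraries of its genotype. The chi-square per degree of freedom between its counts and those of *ZK3*-KO replicates 1 and 2 was 349 and 543. It was 62.4 between those 2 replicates and 41.5 to 95.1 among *ZK3*-WT replicates. Between *ZK3*-KO replicate 3 and *ZK3*-WT replicates 1, 2 and 3 it was 314, 313 and 209. The other pairs across genotypes gave 94.3 to 342. By this measure the libraries thus did not group by genotype alone. Differences below are also given without *ZK3*-KO replicate 3. *ZKSCAN3* mRNA was at 19.8 to 28.1 CPM (read counts scaled to library size with TMM factors) in *ZK3*-WT libraries and at 13.6 to 25.4 CPM in *ZK3*-KO libraries, and edgeR's quasi-likelihood test gave it a false discovery rate (FDR) of 0.797. The read counts of the targeted gene thus did not separate the genotypes. All 7 epithelial markers, such as *EPCAM* and *KRT8*, were expressed, with sums of 3228 to 4096 CPM in *ZK3*-WT libraries and 3124, 2872 and 6003 CPM in *ZK3*-KO replicates 1, 2 and 3. Of 5 markers of colon epithelium, *CDX2* was present at 13.8 to 22.4 CPM, *CDX1* had no read in any library and *VIL1* did not exceed 0.10 CPM. Markers of immune, endothelial, fibroblast and muscle cells summed to 56.6 to 71.6 CPM in *ZK3*-WT libraries. Their sums were 70.4, 45.5 and 123 CPM in *ZK3*-KO replicates 1, 2 and 3. *COL1A1* made up most of each sum, with 44.2 to 56.2 CPM across *ZK3*-WT cultures. It had 49.7, 32.2 and 98.7 CPM across *ZK3*-KO cultures, in the same order. *CD68* ranged from 1.69 to 10.1 CPM over all libraries, and *PTPRC* and *CD3E* had no read. One of the 12 genes in these sums, *ACTA2*, was upregulated in *ZK3*-KO cells (log2 fold change 1.09, edgeR FDR 0.0387), and its part in the results was not tested.

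With all 6 libraries, edgeR's quasi-likelihood test called 1 of the 10 genes at an FDR under 0.05. This was *JAG1*, which fell in *ZK3*-KO cells. In bulk RNA, fewer expressing cells and less RNA per cell cannot be told apart. Among all 18366 genes tested, 2.05% passed in either direction and 1.23% passed as lower. Without *ZK3*-KO replicate 3, 4 of the 10 passed, with *JAG1*, *HES1* and *NOTCH3* lower and *JAG2* higher, when 15.1% of all tested genes passed. With all libraries, 8 of the 10 had a log2 fold change below 0. Their median was -0.19, and the median over all tested genes was 0.02. The genotypes did not overlap in *JAG1*, *JAG2* and *NOTCH3*, as was the case for 26.6% of all tested genes. In deposited TPM and in CPM by library totals alone, an alternative chosen after seeing the data, *HES1* and *DLL1* did not overlap either, when 25.2% and 26.6% of all tested genes did not. Both scalings omit the TMM factor, which was 0.910 for *ZK3*-KO replicate 3 and 0.995 to 1.03 for the other libraries. The median log2 fold change over all tested genes was -0.07 by library totals and -0.08 on log2(TPM + 1). The part of this shift in the separation of *HES1* and *DLL1* was not tested. With the replicate number as a block, *JAG1* alone of the 10 passed again, when 2.51% of all tested genes did. Where 3 values are given for a genotype below, they stand in the order of replicates 1, 2 and 3.

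**Figure D1:**
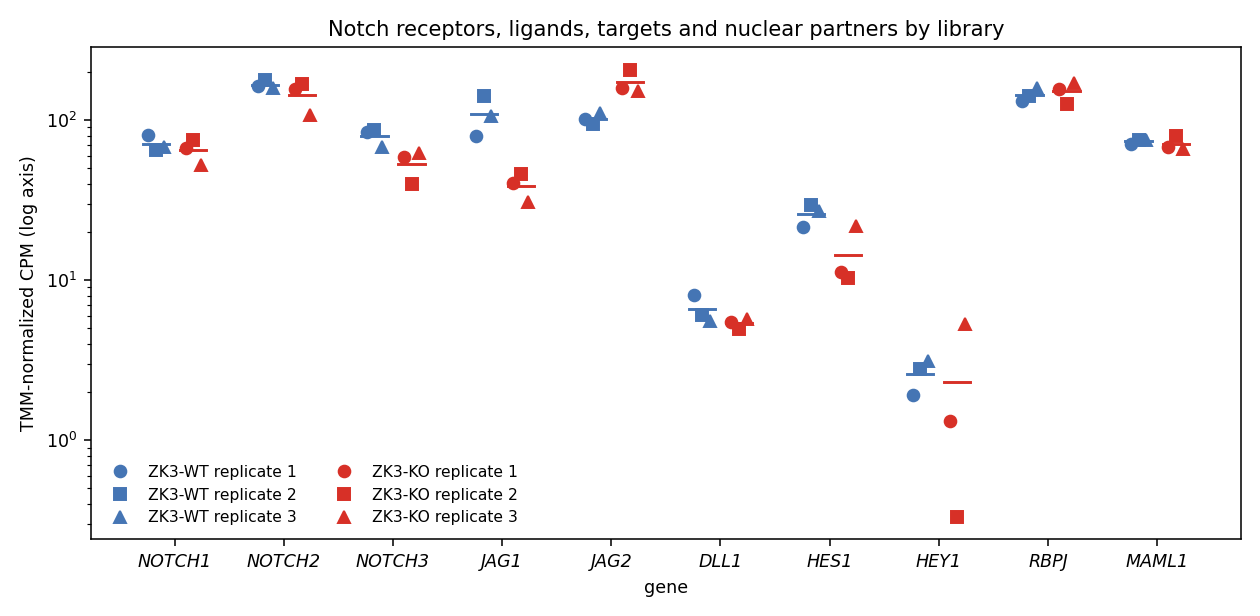
TMM-normalized CPM on a log axis for the 10 genes in each library, with *ZK3*-WT in blue and *ZK3*-KO in red, a marker shape per replicate number and a line at each mean (n = 3). Red and blue points are fully apart for *JAG1* and *NOTCH3* (red lower) and *JAG2* (red higher), and *HEY1* spreads from 0.332 to 5.31 CPM within *ZK3*-KO cells.

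Among the ligands, the Jagged pair had opposite signs. *JAG1* (NCBI Gene 182, chromosome 20 of GRCh37, 10618332 to 10654647, reverse strand) encodes a membrane-bound ligand that is widely expressed in epithelia. It was counted at 79.0, 141 and 106 CPM across *ZK3*-WT cultures against 40.4, 45.8 and 30.6 CPM across *ZK3*-KO cultures. Even the highest *ZK3*-KO library was below the lowest *ZK3*-WT library. The mean decreased from 109 ± 31.0 to 38.9 ± 7.67 CPM (SD, n = 3 each), which is 2.79-fold lower by edgeR (log2 -1.48 ± 0.25 SE, FDR 0.0346). The log2 fold change was between -1.67 and -1.25 in all 13 alternatives, of which 7 passed. The FDR was 0.00913 without *ZK3*-KO replicate 3, and it rose to between 0.0629 and 0.154 when any other single library was left out. The 4 tested genes within 1 Mb of *JAG1* had a median log2 fold change of -0.13. None of them was above 0, and none passed.

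*JAG2* (NCBI Gene 3714, chromosome 14 of GRCh37, 105607319 to 105635161, reverse strand) encodes the second Jagged ligand. Its counts were 101, 94.4 and 110 CPM across *ZK3*-WT cultures against 160, 206 and 151 CPM across *ZK3*-KO cultures. The lowest knockout library exceeded the highest parental one. The means were 102 ± 7.98 and 172 ± 29.6 CPM (SD, n = 3 each), and edgeR estimated the log2 fold change at 0.76 ± 0.17 (SE; FDR 0.0753), which did not pass the threshold. It passed in 2 of 13 alternatives, namely without *ZK3*-KO replicate 3 (log2 fold change 0.85, FDR 0.00896) and with DESeq2 (0.76, FDR 0.00339), and its FDR reached 0.338 over the others. Many genes of chromosome 14 were higher in *ZK3*-KO cells. The 503 other tested genes of this chromosome had a median log2 fold change of 0.51, 80.1% of them were above 0, and 126 genes of the chromosome had a larger log2 fold change than *JAG2*. Within 1 Mb of *JAG2*, 19 of 26 tested genes were above 0, with a median log2 fold change of 0.48, and 2 passed as higher. Whether *JAG2* differed beyond the shift of its chromosome was not tested.

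The balance between the Jagged ligands was compared within each library in TPM, values scaled for both library size and transcript length, which allow levels of different genes to be set side by side. This ratio was chosen after the values were seen. In TPM, *JAG2* was 1.34, 0.717 and 1.11 times *JAG1* in *ZK3*-WT replicates 1, 2 and 3. It was 4.16, 4.81 and 5.17 times *JAG1* in *ZK3*-KO replicates 1, 2 and 3. Parental cells thus held the pair at similar levels, and each *ZK3*-KO library held several times more *JAG2* than *JAG1*. The ratio was 4.60-fold higher in *ZK3*-KO cells on the geometric mean. This is a description without a test, since the pair was picked for its opposite differences. Scaling between libraries does not enter a ratio within one. Both the lower *JAG1* (edgeR log2 fold change -1.48) and the higher *JAG2* (0.76) enter it. The part of the shift of chromosome 14 in the ratio was not tested.

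**Figure D2:**
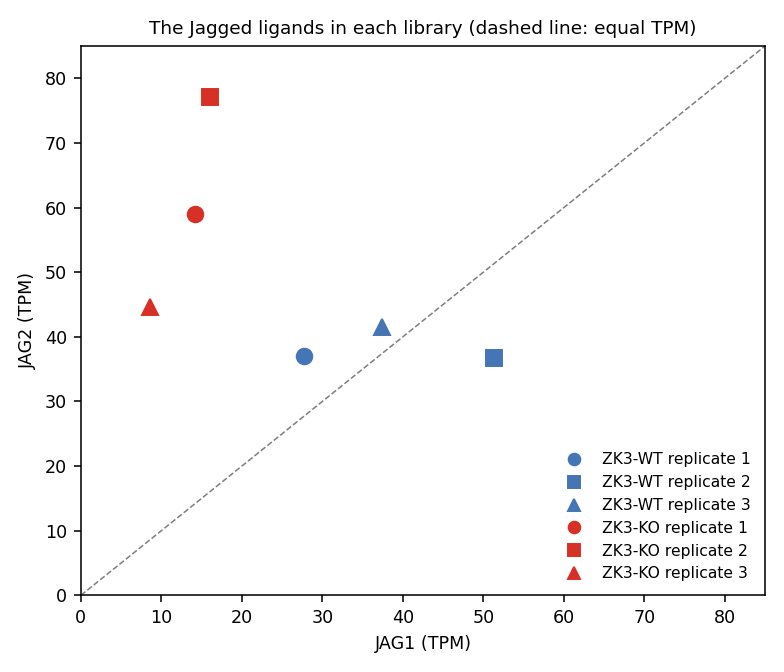
Deposited TPM of *JAG1* (horizontal) and *JAG2* (vertical) in each of the 6 libraries, with *ZK3*-WT in blue, *ZK3*-KO in red and a dashed line where both are equal. The 3 *ZK3*-KO libraries lie far above the line, at *JAG2* to *JAG1* ratios of 4.16 to 5.17, whereas *ZK3*-WT libraries lie near it.

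*DLL1* (NCBI Gene 28514, chromosome 6 of GRCh37, 170591294 to 170615653, reverse strand), a Delta-type ligand that marks secretory precursors in the intestine, was the least abundant of the ligands. It had 8.12, 6.06 and 5.59 CPM across *ZK3*-WT cultures against 5.46, 4.96 and 5.71 CPM across *ZK3*-KO cultures. The genotypes overlapped with TMM factors but not in TPM or by library totals, and the log2 fold change was -0.29 ± 0.22 (SE; edgeR FDR 0.517) with a 95% interval of -0.80 to 0.21. In the GRCh37 annotation, *DLL1* overlaps *FAM120B* on the opposite strand, which had up to 3415 reads in a library. Whether reads were counted by strand is not given in the sources used here, so the 344 to 511 reads of *DLL1* are uncertain.

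None of the 3 receptors passed with all libraries in edgeR or DESeq2. *NOTCH3* (NCBI Gene 4854, chromosome 19 of GRCh37, 15269849 to 15311806, reverse strand) was counted at 84.5, 86.7 and 67.9 CPM across *ZK3*-WT cultures. The *ZK3*-KO cultures gave 58.7, 39.6 and 62.0 CPM. No *ZK3*-KO library reached the lowest *ZK3*-WT library. The log2 fold change was -0.58 (standard error 0.21) with an FDR of 0.204 in edgeR's test, above the threshold. It passed in 1 of 13 alternatives, that without *ZK3*-KO replicate 3 (-0.69, FDR 0.0435), and its FDR was up to 0.556 in the others.

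*NOTCH1* (NCBI Gene 4851, chromosome 9 of GRCh37, 139388885 to 139440500, reverse strand), the receptor that is best known from T-cell leukemia, had 80.1, 64.5 and 67.6 CPM across *ZK3*-WT cultures against 67.1, 75.4 and 52.6 CPM across *ZK3*-KO cultures. *NOTCH2* (NCBI Gene 4853, chromosome 1 of GRCh37, 120454176 to 120643366, reverse strand) had 163, 177 and 157 CPM across *ZK3*-WT cultures against 155, 167 and 108 CPM across *ZK3*-KO cultures. For both receptors the lowest value was that of *ZK3*-KO replicate 3, and the other *ZK3*-KO libraries were close to the *ZK3*-WT range. The log2 fold change of *NOTCH1* was -0.12 (95% interval -0.54 to 0.29, edgeR FDR 0.764), and it was 0.02 without that library. For *NOTCH2* it was -0.21 (95% interval -0.66 to 0.24, edgeR FDR 0.610), and -0.04 without that library. *NOTCH2* has near-identical partial copies on chromosome 1, the human-specific *NOTCH2NL* genes. How reads that match several genes were assigned is not given, so *NOTCH2* counts are uncertain. *NOTCH2NLA*, *NOTCH2NLB* and *NOTCH2NLC* were counted at 5.52 to 14.4 CPM, with log2 fold changes of -0.52, -0.60 and -0.57 (FDR 0.234, 0.268 and 0.267 in edgeR's test), and *NOTCH2NLR* at 1.38 to 3.17 CPM with 0.05 (FDR 0.957).

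The nuclear partners of the receptor were close in both genotypes. *RBPJ* (NCBI Gene 3516, chromosome 4 of GRCh37, 26165077 to 26436753, forward strand), the DNA-binding protein on which the activation complex assembles, had 131, 142 and 159 CPM across *ZK3*-WT cultures against 157, 126 and 169 CPM across *ZK3*-KO cultures. *MAML1* (NCBI Gene 9794, chromosome 5 of GRCh37, 179159823 to 179204284, forward strand), a Mastermind coactivator, had 71.3, 74.9 and 74.7 CPM across *ZK3*-WT cultures against 67.6, 79.5 and 65.7 CPM across *ZK3*-KO cultures. The genotypes overlapped for both. The log2 fold change of *RBPJ* was 0.07 (95% interval -0.33 to 0.46, edgeR FDR 0.873), and its sign turned without *ZK3*-KO replicate 3 (-0.02), with library totals alone (-0.0203) and on TPM (-0.0773). That of *MAML1* was -0.05 (95% interval -0.37 to 0.27, edgeR FDR 0.872). These intervals leave room for differences of that size. *RBPJL*, a relative of *RBPJ*, had at most 18 reads in a library.

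*HES1* (NCBI Gene 3280, chromosome 3 of GRCh37, 193853937 to 193856521, forward strand), the repressor whose promoter carries the copies of TGGGAA shown above, had 21.4, 29.3 and 27.1 CPM across *ZK3*-WT cultures. The *ZK3*-KO cultures gave 11.3, 10.3 and 21.8 CPM. *ZK3*-KO replicates 1 and 2 were below all *ZK3*-WT libraries, whereas replicate 3 was just within the *ZK3*-WT range. That overlap held with TMM factors but not in TPM or by library totals, and other scalings were not examined for it. In TPM, *ZK3*-KO replicate 3 was at 23.1 against a lowest *ZK3*-WT value of 28.3, and by library totals at 19.8 CPM against 22.2 CPM. The means were 26.0 ± 4.06 and 14.5 ± 6.36 CPM (SD, n = 3 each), and the log2 fold change was -0.85 ± 0.31 (SE; edgeR FDR 0.208). Without *ZK3*-KO replicate 3 it was -1.26 (standard error 0.18, FDR 0.00437). Over the other 12 alternatives the FDR was above 0.05 and up to 0.557, with log2 fold changes below 0 in each.

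*HEY1* (NCBI Gene 23462, chromosome 8), a related repressor, was the least abundant member. Between 23 and 328 reads were counted per library, or 1.92, 2.77 and 3.13 CPM across *ZK3*-WT cultures against 1.32, 0.332 and 5.31 CPM across *ZK3*-KO cultures. Both the lowest and the highest value of the series thus came from knockout libraries. The log2 fold change was -0.17 ± 0.82 (SE; edgeR FDR 0.937), with a 95% interval of -2.08 to 1.73. It was -1.66 without *ZK3*-KO replicate 3 (FDR 0.0615) and 0.34 without *ZK3*-KO replicate 2 (FDR 0.797), so the data did not fix its direction. *ZK3*-KO replicate 3 had the highest level of both target genes within *ZK3*-KO cells, and also the highest sum of epithelial markers. The part of this library's state in the target levels was not tested.

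**Figure D3:**
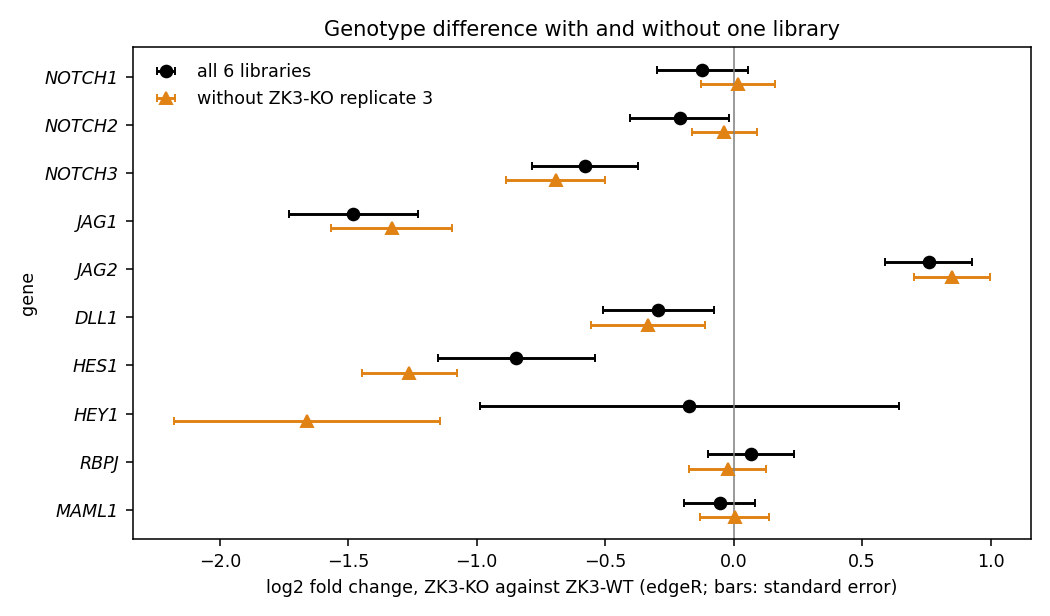
Log2 fold change of *ZK3*-KO against *ZK3*-WT cells from edgeR for the 10 genes, with standard errors as bars, for all 6 libraries (black circles) and without *ZK3*-KO replicate 3 (orange triangles). *JAG1* stays near -1.48 and -1.33, whereas *HES1* moves from -0.85 to -1.26 and *HEY1* from -0.17 to -1.66.

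Levels of different genes were then compared in TPM, as a description. In *ZK3*-WT cells the order was *RBPJ* (53.6 ± 5.35 TPM), *JAG1* (38.8 ± 11.9), *JAG2* (38.4 ± 2.67), *HES1* (34.9 ± 6.04), *NOTCH2* (30.9 ± 2.49), *MAML1* (27.1 ± 1.18), *NOTCH3* (20.1 ± 2.97), *NOTCH1* (15.6 ± 1.59), *DLL1* (3.73 ± 0.746) and *HEY1* (2.46 ± 0.622 TPM; SD, n = 3 each). Neighbors from *RBPJ* to *NOTCH2* overlapped in their libraries, as did *NOTCH3* and *NOTCH1*, while *MAML1*, *DLL1* and *HEY1* were each separate from their neighbors. In *ZK3*-KO cells *JAG2* came first at 60.2 ± 16.3 TPM, ahead of *RBPJ* at 50.8 ± 5.59 TPM with overlapping libraries. *JAG1* was seventh at 13.0 ± 3.86 TPM, among *HES1* at 17.2 ± 5.15, *NOTCH1* at 13.4 ± 3.76 and *NOTCH3* at 12.5 ± 2.30 TPM, each of which overlapped its neighbor. Among the receptors, *NOTCH2* had the highest mean in both genotypes, at 30.9 ± 2.49 TPM in *ZK3*-WT and 25.4 ± 8.49 TPM in *ZK3*-KO cells.

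The rest of the pathway was described with 64 further genes in 8 groups by role, of which 58 were tested. In *ZK3*-KO cells 1 of the 58 was upregulated and 2 were downregulated at an FDR of 0.05 in edgeR's test, against 0.817% and 1.23% of all tested genes. Their median log2 fold change was -0.07. Without *ZK3*-KO replicate 3, 8 of the 58 passed, 2 higher and 6 lower, when 15.1% of all tested genes passed.

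The 3 genes that passed were 2 coactivators and a ubiquitin ligase. *MAML2*, a Mastermind coactivator like *MAML1*, had 12.2, 14.9 and 9.36 CPM across *ZK3*-WT cultures against 3.04, 3.49 and 1.63 CPM across *ZK3*-KO cultures. Its log2 fold change was -2.16 ± 0.33 (SE; edgeR FDR 0.0254). *DTX3L*, an E3 ubiquitin ligase of the Deltex family that is better known from DNA damage repair, had 42.7, 58.4 and 44.4 CPM across *ZK3*-WT cultures against 14.9, 19.9 and 12.2 CPM across *ZK3*-KO cultures. Both were lower in every *ZK3*-KO library than in any *ZK3*-WT library. The log2 fold change of *DTX3L* was -1.63 ± 0.23 (SE; edgeR FDR 0.0194). *SNW1*, a splicing factor that also binds the RBPJ complex, was upregulated, with 80.6, 79.0 and 81.1 CPM across *ZK3*-WT cultures against 132, 130 and 149 CPM across *ZK3*-KO cultures. Its log2 fold change was 0.77 ± 0.13 (SE; edgeR FDR 0.0359). *SNW1* lies on chromosome 14, where 53 of the 503 tested genes other than *JAG2* passed as higher, *SNW1* among them. With the replicate number as a block, *SNW1* no longer passed (FDR 0.0514). *MAML2* and *DTX3L* passed in 9 of 13 alternatives (FDR up to 0.152 and 0.113) and *SNW1* in 6 (up to 0.214). Without *ZK3*-WT replicate 1, 2 or 3 or *ZK3*-KO replicate 1, none of the 3 passed, and without *ZK3*-KO replicate 2 *SNW1* did not (FDR 0.0747).

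**Figure D4:**
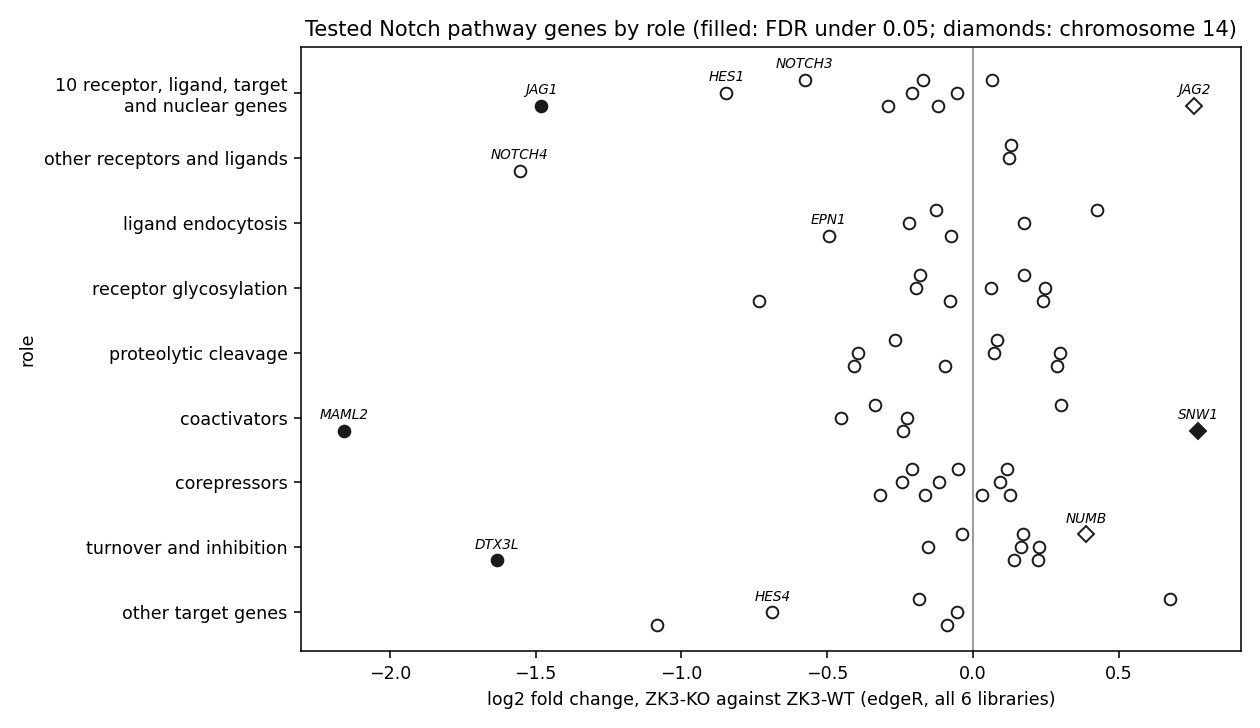
Log2 fold change of *ZK3*-KO against *ZK3*-WT cells for the tested pathway genes reported here, 1 row per role, with filled symbols for an FDR under 0.05 and diamonds for genes on chromosome 14; genes with an unadjusted p-value under 0.05 are named. *JAG1*, *MAML2* and *DTX3L* are filled on the left and *SNW1* on the right, and the 3 diamonds are all above 0.

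By role, ligands and receptors outside the 10 genes were scarce. *NOTCH4*, a receptor of the endothelium, had 54, 94 and 112 reads across *ZK3*-WT cultures against 30, 27 and 27 reads across *ZK3*-KO cultures. All *ZK3*-KO libraries were lower, and edgeR gave a log2 fold change of -1.55 ± 0.34 (SE; FDR 0.0724). *NOTCH4* passed without *ZK3*-KO replicate 3 (FDR 0.0296) and in DESeq2 with all libraries (FDR 0.00361). By TPM *DLL4* was the most abundant of this group, at 2.79 ± 0.430 and 2.69 ± 1.02 TPM (SD, n = 3 each; FDR 0.894). *DLL3* and *DLK1* had at most 13 reads in a library and were not tested.

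Proteolytic cleavage releases the intracellular part of the receptor. *APH1A*, a γ-secretase subunit, was the most abundant of the 9 cleavage genes by TPM, at 85.4 ± 4.09 and 97.4 ± 14.5 TPM (SD, n = 3 each; FDR 0.331). *NUMB*, an inhibitor of the receptor in the turnover group, had 65.9 to 71.5 CPM in *ZK3*-WT libraries and 79.8 to 96.8 CPM in *ZK3*-KO libraries, with a log2 fold change of 0.39 (edgeR FDR 0.204). *SNW1* and *NUMB* lie on chromosome 14, as *JAG2* does. Their differences from the chromosome's median of 0.51 were not tested.

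Ligand endocytosis gives the pull that activates the receptor. *EPN1*, the most abundant of its 6 genes by TPM, had 105, 105 and 125 CPM across *ZK3*-WT cultures against 72.2, 79.4 and 85.7 CPM across *ZK3*-KO cultures. All *ZK3*-KO libraries were lower, and edgeR gave a log2 fold change of -0.50 ± 0.15 (SE; FDR 0.146). *EPN1* passed without *ZK3*-KO replicate 3 (FDR 0.0320) and in DESeq2 with all libraries (FDR 0.0478). The 8 genes of receptor glycosylation ranged from -0.73 to 0.25 in log2 fold change and the 10 corepressors from -0.32 to 0.13. *RFNG*, a Fringe glycosyltransferase (FDR 0.909), *HDAC1*, a histone deacetylase (FDR 0.783), and *CCNC*, the cyclin that helps mark the intracellular part of the receptor for decay (FDR 0.551), were by TPM the most abundant genes of the glycosylation, corepressor and turnover groups (FDR from edgeR).

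Of 8 further genes listed as targets, 6 were tested and 5 of these had a log2 fold change below 0, with a median of -0.14. However, *NRARP* (0.19) and *HEYL* (0.07) were above 0 without *ZK3*-KO replicate 3. Whether Notch drives each of the 8 genes, *HES6* among them, was not tested. *HES4*, a relative of *HES1*, had 18.6, 11.5 and 18.5 CPM across *ZK3*-WT cultures against 9.55, 9.79 and 10.7 CPM across *ZK3*-KO cultures. The genotypes did not overlap, and edgeR gave a log2 fold change of -0.69 ± 0.22 (SE; FDR 0.170; 0.0610 without *ZK3*-KO replicate 3). *NRARP*, a feedback inhibitor that Notch itself induces, was at -0.06 (FDR 0.938), *HEYL* at -0.09 (FDR 0.853) and *HES6*, the most abundant of the group by TPM, at -0.18 (FDR 0.636) in edgeR's test. *HES5* and the crypt stem cell gene *OLFM4* had no read in any library, where 3 reads correspond to between 0.0428 and 0.0485 CPM.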

How the data were processed

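The authors sequenced stranded, poly(A)-selected RNA from 3 *ZK3*-WT and 3 *ZK3*-KO cultures and deposited read counts per gene without normalization. The authors also deposited TPM, scaled by transcript length, and FPKM, which was not used here. The submitters' processing notes name Bowtie2 2.2.5 and hg19 (GRCh37). The methods name an Ensembl annotation, whereas the table lists RefSeq transcripts, and the treatment of strand and of reads with several matches is not given in the sources used here. Column names were matched to the sample labels.

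Counts were analyzed in R 4.3.3 with edgeR 4.0.16 (filterByExpr, TMM, quasi-likelihood test with genotype as the only factor), Benjamini-Hochberg adjustment over 18366 genes and a threshold of 0.05. CPM values are TMM-normalized. The 95% intervals use the test's own degrees of freedom. Alternatives were DESeq2 1.42.0, limma 3.58.1 on log2(TPM + 1), library totals alone, upper-quartile factors, filters of at least 1 read or of 10 reads in every library, the replicate number as a block, and each library left out. Deviations from the genotype mean (log2(CPM + 1)) correlated across genes at 0.473, 0.124 and 0.616 for replicate numbers 1, 2 and 3, and from -0.573 to 0.289 for unequal numbers of the 2 genotypes, so the block was included among the alternatives. What the numbers mark is not stated. Gene positions come from GENCODE on GRCh37, matched by symbol, and promoters from RefSeq on GRCh38.p14. Scripts were tested on simulated counts.

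The 10 genes and the lists were chosen with earlier results of these data known. Named are all 10, the other pathway and secretory genes with an FDR or unadjusted p-value under 0.05, the most abundant gene of each list, near-identical copies with reads, and the 3 genes most like *HES1*. One gene of the pathway lists that meets this rule is counted in the totals but not reported here. Any further gene was named with its values known. The replicates are biological ones in the study's methods, and the labels say only that they are separate samples. The p-values set the genotype difference against the spread between these cultures. If the *ZK3*-KO cultures share a clone, differences of that clone cannot be told apart from those of the knockout.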

Additional observations from a re-analysis of the deposited data

How the results depend on the processing

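Among the 10 genes, *JAG1*, *JAG2*, *NOTCH2*, *NOTCH3*, *DLL1* and *HES1* kept the sign of their log2 fold change in all 13 alternatives. With 1 library left out, log2 fold changes ranged from -0.241 to 0.0165 for *NOTCH1*, from -1.66 to 0.344 for *HEY1*, from -0.0226 to 0.181 for *RBPJ* and from -0.144 to 0.0031 for *MAML1*. The sign turned without *ZK3*-KO replicate 3 for *NOTCH1*, *RBPJ* and *MAML1*, and without *ZK3*-KO replicate 1 (0.108) or 2 for *HEY1*. For *RBPJ* it also turned with library totals alone (-0.0203) and with limma on log2(TPM + 1) (-0.0773). The number of the 10 genes past an FDR of 0.05 was 1 in edgeR, 2 in DESeq2, 0 in limma on log2(TPM + 1), where *JAG1* had an FDR of 0.0509, and from 0 to 4 when 1 library was left out. Of the other pathway genes 3 passed in edgeR, 6 in DESeq2 and from 0 to 8 with 1 library left out. Over all genes 376 passed in edgeR, 1506 in DESeq2 and from 49 to 2858 with 1 library left out, the lowest without *ZK3*-WT replicate 2 and the highest without *ZK3*-KO replicate 3. On TPM 88 genes passed as higher and 294 as lower, against 150 and 226 in edgeR. The cause of these shifts was not tested. With the replicate block 461 genes passed, 1 of the 10 genes and 2 of the other pathway genes. *SNW1* lost its call, and no other call among the genes named changed. Among the 10 genes depth was lowest for *HEY1*, with 23 reads in 1 library.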

Other observations

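Notch activity in the intestine holds back the secretory lineage, so 9 secretory genes were examined beside the pathway. *NEUROG3*, *INSM1*, *TFF3* and *CHGA*, which mark endocrine and goblet cells, had no read in any library. *ATOH1*, the transcription factor that starts the secretory program and that HES1 represses, had 4, 6 and 8 reads across *ZK3*-WT cultures against 2, 17 and 0 reads across *ZK3*-KO cultures. It was too low to be tested, and *NEUROD1* had at most 8 reads in a library. *GFI1*, a zinc finger repressor downstream of *ATOH1*, was the most abundant of the list, with 10.3, 10.6 and 12.5 CPM across *ZK3*-WT cultures against 9.56, 7.48 and 7.46 CPM across *ZK3*-KO cultures. All *ZK3*-KO libraries were lower, and edgeR gave a log2 fold change of -0.44 ± 0.19 (SE; FDR 0.268). The goblet cell factor *SPDEF* (4 to 20 reads per library) and the mucin *MUC2* (13 to 22 reads) had log2 fold changes of 1.02 (FDR 0.420) and 0.35 (FDR 0.673) in edgeR's test. None of the 3 tested genes of the list passed in edgeR, and 1, *GFI1*, had an unadjusted p-value under 0.05.

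The tested genes whose profile over the 6 libraries was most like that of *HES1* were *SH3BP4*, *DDR1* and *PTTG1IP*, with Pearson's r of 0.998, 0.996 and 0.995 on log2(CPM + 0.5) (n = 6 libraries in 2 genotypes). All 3 had their lowest levels in *ZK3*-KO replicates 1 and 2, as *HES1* did. *DDR1*, a collagen receptor, had 224, 271 and 274 CPM across *ZK3*-WT cultures against 151, 147 and 235 CPM across *ZK3*-KO cultures. With so few libraries 276 genes had an r above 0.95, so the likeness does not single out these genes.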
